A study of Mus musculus with 4 samples.

Results

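A set of BCL-2 family genes was followed through the blood-forming cells of mice with and without a transplanted mammary tumor. The 10 genes, chosen by name, were the survival genes Bcl2, Bcl2l1, Mcl1 and Bcl2a1b, the BH3-only death genes Bcl2l11, Bbc3, Pmaip1 and Bid, and the effector genes Bax and Bak1, and all 10 of the 10 were present among the 32285 genes of the count matrices. Single-cell RNA was counted in 4 droplet libraries, 1 per group, from C57BL/6J mice aged 8 to 16 weeks: control bone marrow (CBM), bone marrow of mice with PyMT-B6 tumors (TBM), control spleen (CS) and spleen of mice with PyMT-B6 tumors (TS). PyMT-B6 is a line grown from a mammary tumor of an MMTV-PyMT mouse, in which a viral oncogene is driven mainly in mammary epithelium. In all 4 groups the tissue was digested with collagenase IV and DNase I, depleted of lineage-positive cells on beads, sorted into CD45+ c-Kit+ progenitor gates with and without Sca-1 and into CD45- gates read with CD31 and CD51, and recombined at equal ratios, so the share of a cell type in a library is set by the sort. The number of mice behind a library is not given in the sources used here.

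Proteins of this family decide whether the outer mitochondrial membrane of a cell stays intact. BAX and BAK, once active, form pores that release cytochrome c and start caspase activation. BCL-2, BCL-XL (the product of Bcl2l1), MCL-1 and A1 (the product of the Bcl2a1 genes) hold them in check, and the BH3-only proteins BIM (Bcl2l11), PUMA (Bbc3), NOXA (Pmaip1) and BID bind the survival proteins or the effectors and tip the balance towards death. Blood stem cells are known to need MCL-1, maturing erythroid cells and platelets to need BCL-XL, and lymphocyte numbers to depend on the balance of BCL-2 and BIM.

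Levels are given in CPM, the UMIs (unique molecule counts) of a gene per 1000000 UMIs of a cell class in a library, after barcodes with fewer than 1000 genes or more than 10% of UMIs from mitochondrial genes were left out. That left 16261 barcodes, 3236 to 5188 per library with median depths of 13738 to 26808 UMIs, and 27 barcodes occurred in more than 1 library. Graph clustering without the 10 genes gave 40 clusters, of which 24 could be named from marker genes and 16, with 32.7% of the barcodes, could not. The unnamed share was 19.0% in CBM and 19.3% in TBM, and 42.8% in CS and 47.0% in TS. The named classes therefore leave out more of the spleen barcodes. No cluster could be named endothelial or stromal, although CD45- cells were sorted. Each interval below is an exact 95% Poisson interval or, for a ratio, the exact conditional interval, and covers counting error only: with 1 library per group no difference between conditions can be tested. Levels of different genes are not compared, since a 3′ count depends on the gene.

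Positions are those of the GENCODE annotation on the GRCm38 (mm10) assembly. Bcl2 is at chr1:106538178-106714274 on the minus strand, Bcl2l1 at chr2:152780668-152831728 on the minus strand, Bcl2l11 at chr2:128126038-128162547 on the plus strand and Mcl1 at chr3:95658788-95663176 on the plus strand. Bbc3 is at chr7:16308393-16318205 on the plus strand, Bax at chr7:45461697-45466898 on the minus strand and Bcl2a1b at chr9:89199209-89207827 on the plus strand. Bcl2 overlaps D630008O14Rik on the other strand, Bid at chr6:120891930-120916853 overlaps Bcl2l13 on the other strand, and Bak1 at chr17:27019810-27029009 overlaps Ggnbp1 on the other strand. Bcl2a1b has near-identical copies, Bcl2a1a and Bcl2a1d. Of 311 windows of 90 bases in the last 400 bases of its transcript, 106 (34.1%) also occur in a copy, so its counts are uncertain to that extent.

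Promoter sequence from RefSeq (GRCm38.p6) was at hand for 9 of the 10 genes, in 14 windows of 250 bases before a transcript start. The 4 shown are those of Bcl2, Bcl2l11, Bcl2a1b and Bbc3. Bcl2 and Bcl2l11 ran in opposite directions over stem and progenitor cells as a whole, but not within each cluster of them. Among the named classes Bcl2a1b was highest in dendritic-like and lymphoid-like cells of CS, and Bbc3 shares a motif with Bcl2l11. Letters in capitals mark motif matches on either strand: CRE (TGACGT) in Bcl2, FOXO (TGTTTAC, or its reverse complement) in Bcl2l11 and Bbc3, and the loose AP-1 letters (TGANTCA) followed by PU.1 (GAGGAAGT) in Bcl2a1b. N stands for any base, and the stretch matched in Bcl2a1b is TGAATCA. The Bcl2a1b window is cut to the 186 bases before the first annotated exon.
Bcl2, chr1:106714291-106714540, minus strand: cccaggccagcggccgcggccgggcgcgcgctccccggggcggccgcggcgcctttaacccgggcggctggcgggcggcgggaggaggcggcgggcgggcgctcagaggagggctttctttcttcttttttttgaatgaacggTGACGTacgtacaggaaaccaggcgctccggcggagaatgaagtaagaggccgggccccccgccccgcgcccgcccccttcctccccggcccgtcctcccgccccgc
Bcl2l11, chr2:128125788-128126037, plus strand: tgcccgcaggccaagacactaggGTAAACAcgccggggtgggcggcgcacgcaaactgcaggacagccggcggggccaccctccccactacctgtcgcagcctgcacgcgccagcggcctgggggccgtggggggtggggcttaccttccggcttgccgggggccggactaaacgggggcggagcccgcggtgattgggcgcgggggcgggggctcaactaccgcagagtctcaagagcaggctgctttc
Bbc3, chr7:16310011-16310260, plus strand: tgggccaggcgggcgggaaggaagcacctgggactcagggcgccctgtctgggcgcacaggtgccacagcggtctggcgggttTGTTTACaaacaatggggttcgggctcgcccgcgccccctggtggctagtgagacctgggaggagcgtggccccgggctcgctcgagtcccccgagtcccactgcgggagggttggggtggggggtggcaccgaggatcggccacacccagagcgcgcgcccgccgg
Bcl2a1b, chr9:89199023-89199208, plus strand: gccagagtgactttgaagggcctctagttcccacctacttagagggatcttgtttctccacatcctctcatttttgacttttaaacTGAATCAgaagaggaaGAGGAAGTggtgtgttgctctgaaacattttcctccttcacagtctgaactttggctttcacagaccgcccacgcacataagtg

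Among all 32851 promoter windows of the same length, 6.47% held the CRE letters, 3.17% the FOXO letters, 6.75% the AP-1 letters and 2.44% the PU.1 letters. Of the other motifs searched, the letters AGATAA, bound by GATA factors (9.99% of windows), were found in Bcl2l1. E-box (CACGTG, 6.02%) was found in Bax and Bbc3, and PU.1 also in Bak1. A loose NF-kB pattern, which allows any base at its middle positions (4.65%), was matched in Bbc3, Bcl2l1 and Mcl1. Such a match need not be an NF-kB site. STAT (TTCNNNGAA, 7.02%) was found in 0 of the 14 windows. The windows of Bcl2l1 and Bak1 that held a match begin in annotated exon sequence. The Bcl2l1 window just before the annotated gene held no match. A match describes the letters alone.

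The survival genes were each highest in a different cell class. Bcl2 was highest in T, NK or innate lymphoid-like cells, at 221 CPM in CS and 335 in TS. Megakaryocyte-like cells followed with 80.2 to 134 over the 4 libraries, hematopoietic stem and progenitor cell (HSPC)-like cells with 62.5 to 113, and monocyte-like cells with 40.7 to 85.1 over 3. The ranges of these last classes overlapped, whereas granulocyte-monocyte progenitor (GMP)-like cells, at 33.5 to 46.0, lay above the conventional dendritic-like cells of CS at 16.3. Bcl2 was lowest in the erythroid classes: early erythroid-like cells held 7.85 in CS and 7.91 in TS, and hemoglobin-rich erythroid-like cells 1.43 to 8.34.

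Bcl2l1, which encodes BCL-XL, had a different order. B lineage-like cells were highest, at 61.3 in CBM and 54.0 in TBM, followed by megakaryocyte-like cells at 34.2 to 54.2 and hemoglobin-rich erythroid-like cells at 31.4 to 52.3, with overlapping ranges. Early erythroid-like cells were lowest at 2.42 in CS and 2.01 in TS. Of the erythroid classes, the hemoglobin-rich cells were thus high and the early cells low in Bcl2l1, whereas both were low in Bcl2. Among the megakaryocyte-like cells, cluster 31, led by the platelet gene Ppbp, held 193 CPM of Bcl2l1 in CS and 172 in TS, well above the class as a whole. The same cluster also held high levels of the death gene Bbc3, at 116 in CS and 89.3 in TS. It was a shallow cluster, with a median depth of 0.145 of the library median, and had 29 barcodes in CS and 27 in TS. In TS the whole class held 18 UMIs of Bbc3, so these levels rest on few UMIs.

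Mcl1, whose short-lived product is needed by many blood cells, was detected in every class. It was highest in neutrophil precursor-like cells, at 689 in TBM, the only library in which this class had at least 50 barcodes, and next in mast or basophil-like cells at 376 to 610. HSPC-like cells lay in the middle at 301 to 421. Early erythroid-like cells, at 124 and 130, and hemoglobin-rich erythroid-like cells, at 120 to 121, were lowest. Among the named classes Bcl2a1b was highest in conventional dendritic-like cells of CS, at 232 (222 to 243), and the copies Bcl2a1a and Bcl2a1d held 237 and 250 there. In the other named classes with at least 50 barcodes, T, NK or innate lymphoid-like cells apart, Bcl2a1b was at most 5.71, and in B lineage-like cells it had 0 UMIs in both libraries. There 3 UMIs would be 1.90 in CBM and 3.86 in TBM, and the upper Poisson limits are 2.33 and 4.74.

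Among the death genes, Pmaip1 (NOXA) was also highest in conventional dendritic-like cells, at 150 in CS, and then in mast or basophil-like cells at 13.6 to 66.5. Bcl2l11 (BIM) was highest by the median over libraries in T, NK or innate lymphoid-like cells, at 69.2 in CS and 71.3 in TS. HSPC-like cells, at 45.3 to 86.1, overlapped them and were the higher in TS. Bid, which links death receptors to mitochondria, was highest in monocyte-like cells at 52.8 to 54.6, above every other class and nearly equal in the 3 libraries. Bbc3 (PUMA) was highest in mast or basophil-like cells at 12.8 to 24.9, overlapping megakaryocyte-like cells at 10.6 to 20.6. By the median over libraries it was lowest in GMP-like cells, at 1.59 to 2.27. Single values elsewhere were as low or lower, at 1.90 in B lineage-like cells of CBM and 0.41, from 1 UMI, in T, NK or innate lymphoid-like cells of TS. The effectors were spread more evenly. Bax was high in early erythroid-like cells, at 163 and 180, overlapping monocyte-like cells at up to 182, and low in neutrophil precursor-like cells at 46.1, overlapping hemoglobin-rich erythroid-like cells at 40.3 to 70.0. Bak1 was between 11.7 in hemoglobin-rich erythroid-like cells and 89.99 in monocyte-like cells.

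**Figure D1:**
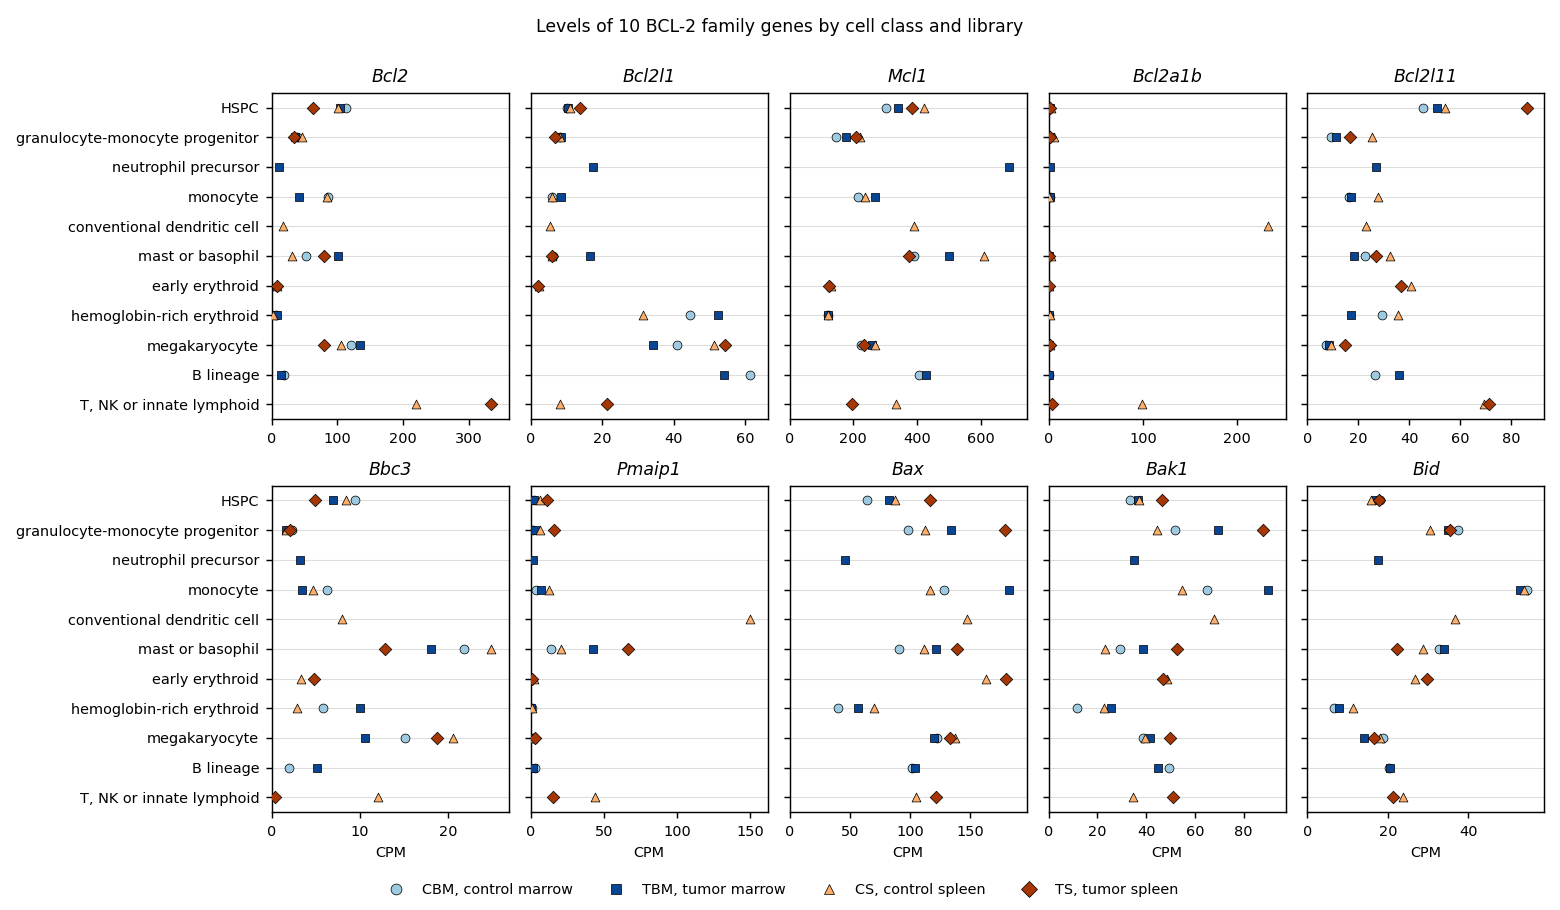
Level of each of the 10 genes by cell class in the 4 libraries, for class and library pairs with at least 50 barcodes. Levels are in CPM on a linear scale with its own range for each gene. Bcl2a1b stands out in the conventional dendritic-like cells of CS at 232, Bcl2 in the T, NK or innate lymphoid-like cells of TS at 335, and Bcl2l1 separates hemoglobin-rich from early erythroid-like cells.

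Free RNA, read from barcodes with at most 100 UMIs, gives a background that differs by library. For Bcl2a1b it was 24.7 CPM in CS against 1.11 to 2.64 in the other 3 libraries, and for Pmaip1 15.8 in CS against 4.71 to 6.61. For Bcl2 it was 62.3 in CBM and 50.9 in TBM, and 17.4 in CS and 25.2 in TS. For Mcl1 it was 231 in CBM and 225 in TBM, and 176 in CS and 174 in TS, for Bcl2l11 12.5 and 11.6, and 20.3 and 29.9, and for Bid 42.1 and 38.7, and 22.7 and 24.4. Of the 300 levels of the 10 genes by class and library, 151 were at or under the free RNA level of the same gene and library, among them those of Bcl2a1b in all CS classes but the dendritic and lymphoid ones. Such a level does not by itself show that the class expresses the gene, so differences that rest on one are given as values, and the part of free RNA in them was not tested. The same holds for levels within clusters.

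HSPC-like cells, the population the study centres on, numbered 779 in CBM and 832 in TBM, and 138 in CS and 666 in TS. All 12 of their marker genes were detected in each library. So were all 5 GMP and all 9 monocyte markers, so detection alone does not set the class apart. Different clusters held the HSPC-like cells. Cluster 0, led by Hlf, held 666 and 664 of the marrow cells but 48 of those of TS, cluster 13, led by Adgrl4 and Cd34, held 113, 151, 28 and 207 in CBM, TBM, CS and TS, and cluster 15, led by Cxcl2, Dusp2 and Ly6a, held 411 of the TS cells, 27 of CS, 17 of TBM and 0 of CBM. Values within clusters are therefore given beside those of the class.

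Taken as a whole class, the HSPC-like cells of the tumor spleen carried less Bcl2 and more Bcl2l11 than those of the other libraries. Pmaip1 and Bax were also highest there, but Pmaip1 in the other 3 libraries and Bax in all 4 were under their free RNA levels. Bcl2 was at 113 CPM (107 to 119) in CBM, 104 (98.2 to 110) in TBM, 102 (90.3 to 114) in CS and 62.5 (57.8 to 67.6) in TS. The TS interval lay below the other 3. On the log2 scale TS was at -0.70 (-0.90 to -0.50) relative to CS and at -0.73 (-0.87 to -0.59) relative to TBM. The 12 HSPC marker genes together were also lowest in TS, at 1397 CPM against 2072 in CBM and 1975 in TBM, with 1772 in CS, and the part of this in the difference was not tested. The clusters differed in it. In cluster 13 Bcl2 was at 161 in CBM and 114 in TBM, and at 143 in CS and 72.1 in TS, a log2 ratio of TS over CS of -0.99 (-1.28 to -0.70). In cluster 0 it was 92.2 in CS and 79.9 in TS, with overlapping intervals, and in cluster 15 it was 47.1 in CS and 52.2 in TS.

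Bcl2l11, whose product BIM opposes BCL-2, ran the other way over the whole class, but not within each cluster. It was at 45.3 in CBM and 50.8 in TBM, and at 54.1 in CS and 86.1 (80.5 to 91.9) in TS, with the TS interval above the other 3. TS exceeded CS by 0.67 (0.43 to 0.92) on the log2 scale and TBM by 0.76 (0.61 to 0.91). Free RNA of Bcl2l11, under the class level in each library, was also highest in TS, at 29.9 against 20.3 in CS, and its part was not tested. Cluster 15 of TS held the highest level of Bcl2l11, 110 (101 to 120), against 63.5 in the same cluster of CS, a log2 ratio of 0.79 (0.27 to 1.37). Cluster 15 was shallower than clusters 0 and 13, with median depths of 0.439, 0.852 and 1.333 of the library median. Within cluster 13 the ratio of TS over CS was -0.23, with levels of 63.5 and 74.3, whereas the marrow levels there were 36.7 in CBM and 28.4 in TBM, so in this cluster Bcl2l11 divided spleen from marrow. In cluster 0 Bcl2l11 was at 48.3 in CBM and 61.9 in TBM, and at 38.2 in CS and 49.7 in TS (23 UMIs), where TS over CS gave 0.38 (-0.39 to 1.098) and TS over TBM -0.32 (-0.99 to 0.28), intervals that both span 0. Of the marker lists of other classes, only the T, NK or innate lymphoid and the early erythroid lists summed in the library order of Bcl2l11 in HSPC-like cells. The former was at 162 in CBM and 190 in TBM, and at 236 in CS and 306 in TS, with Cd3e, Cd3g, Ncr1 and Il2rb at 0 UMIs in all 4. The early erythroid list was at 81.2 in CBM and 106 in TBM, and at 151 in CS and 193 in TS. The remaining lists did not keep that order, the largest being that of GMP-like cells, at 1483 in CBM and 2205.5 in TBM, and at 1470 in CS and 1973 in TS. The part of these markers was not tested.

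Pmaip1 was low in every HSPC-like population, at 2.09 in CBM (26 UMIs) and 2.51 in TBM (32 UMIs), and at 6.38 in CS (19 UMIs) and 11.3 (9.36 to 13.6) in TS (116 UMIs). The free RNA level of Pmaip1 was above the HSPC-like level in CBM, TBM and CS, at 5.59, 6.61 and 15.8. The log2 ratio reached 2.17 (1.60 to 2.79) for TS over TBM, with 1.61 (0.68 to 2.52) for CS over CBM, 0.83 (0.12 to 1.61) for TS over CS and 0.27 for TBM over CBM. In cluster 13 it was 2.49 in CBM and 2.91 in TBM, and 10.3 in CS and 11.3 in TS. In cluster 0 it was 4.61 in CS and 4.32 in TS, the latter from 2 UMIs, and in cluster 15 it was 4.09, also from 2 UMIs, and 11.97. With 10% of each class's UMIs taken out as free RNA the ratios were 2.55 for TS over TBM and 1.65 for CS over CBM. The ratio of TS over TBM was as low as 1.55 over planned settings. In single clusters it ran from 0.93, under 2-fold, to 1.96.

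Over the whole class the effector genes were ordered alike in the 4 libraries. Bax was at 64.0 in CBM and 82.2 in TBM, and at 87.7 in CS and 117 in TS, and its interval for the log2 ratio lay above 0 in all 4 comparisons, from 0.36 for TBM over CBM to 0.51 for TS over TBM. Bak1 was at 33.4, 36.7, 37.3 and 46.7 in the same order, a log2 ratio of 0.35 for TS over TBM. Within clusters Bak1 did not keep that order: TS over TBM gave -0.74 (-1.88 to 0.21) in cluster 0, from 9 TS UMIs, and 0.13 (-0.16 to 0.41) in cluster 13. Free RNA of Bak1 was above the class level in CBM, TBM and CS, at 39.1, 53.9 and 41.9, and below it in TS, at 40.8. Free RNA levels of Bax stood in a like order, at 88.5 in CBM and 110 in TBM, and at 113 in CS and 136 in TS, each above the HSPC-like level, and their part in the difference was not tested.

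Mcl1 in HSPC-like cells was at 301 in CBM and 342 in TBM, and at 421 in CS and 384 in TS. Both spleen values lay above both marrow values, with a log2 ratio of CS over CBM of 0.48 (0.39 to 0.58). The dissociation and immediate-early genes, a list of 14 that includes Fos and Jun, stood in the same order as Mcl1, summing to 4380 CPM in CBM and 5090 in TBM, and to 8518.7 in CS and 7334 in TS, and their part in the difference was not tested. Bbc3 was lowest in TS, at 9.49, 6.91, 8.40 and 4.88 in CBM, TBM, CS and TS, a log2 ratio of TS over CS of -0.78 (-1.502 to -0.03). The clusters differed in this ratio for Bbc3, at 0.54 in cluster 0 (4 TS UMIs), -0.02 in cluster 13 (4 CS UMIs) and -2.21 (-3.24 to -1.098) in cluster 15. Free RNA of Bbc3 was above the class level in CBM, CS and TS, at 10.7, 9.08 and 6.38. Bcl2l1 was at 10.2, 10.5, 11.1 and 13.9, and Bid at 18.2, 16.7, 15.8 and 17.8. Bcl2a1b was at 1.05 to 2.35, from 7 to 22 UMIs a library, and under the free RNA level in CBM, TBM and CS.

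**Figure D2:**
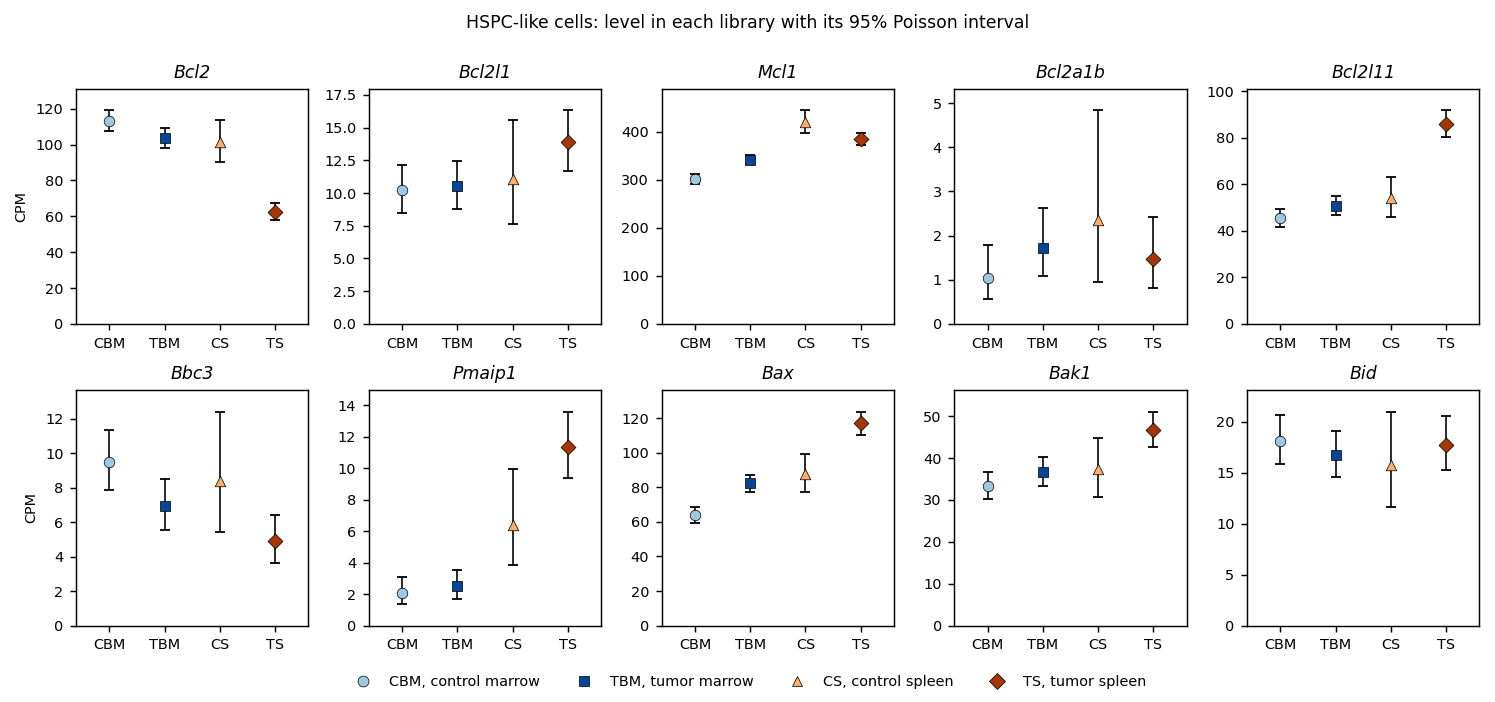
Level of the 10 genes in HSPC-like cells of each library in CPM, with exact 95% Poisson intervals (1 library per group). TS is lowest for Bcl2 at 62.5 and highest for Bcl2l11 at 86.1, Pmaip1 at 11.3 and Bax at 117.

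A 2-fold difference was used to count genes in HSPC-like cells. In TS over CS 0 of 10 were past 2-fold, against 5.64% of all 11509 genes with at least 20 UMIs in the pair of libraries, and in TBM over CBM 0 of 10, against 4.60% of genes. In CS over CBM 2 of 10 were higher, Pmaip1 and the sparse Bcl2a1b, both at levels under free RNA, against 5.08% of genes in either direction, and in TS over TBM 1 of 10, Pmaip1, against 5.69%. The median log2 ratio of the 10 genes was 0.25, 0.15, 0.21 and 0.26 in these comparisons, and that of all genes -0.05, 0.00, 0.02 and -0.05. The 4 comparisons share libraries, so they are not independent of each other.

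**Figure D3:**
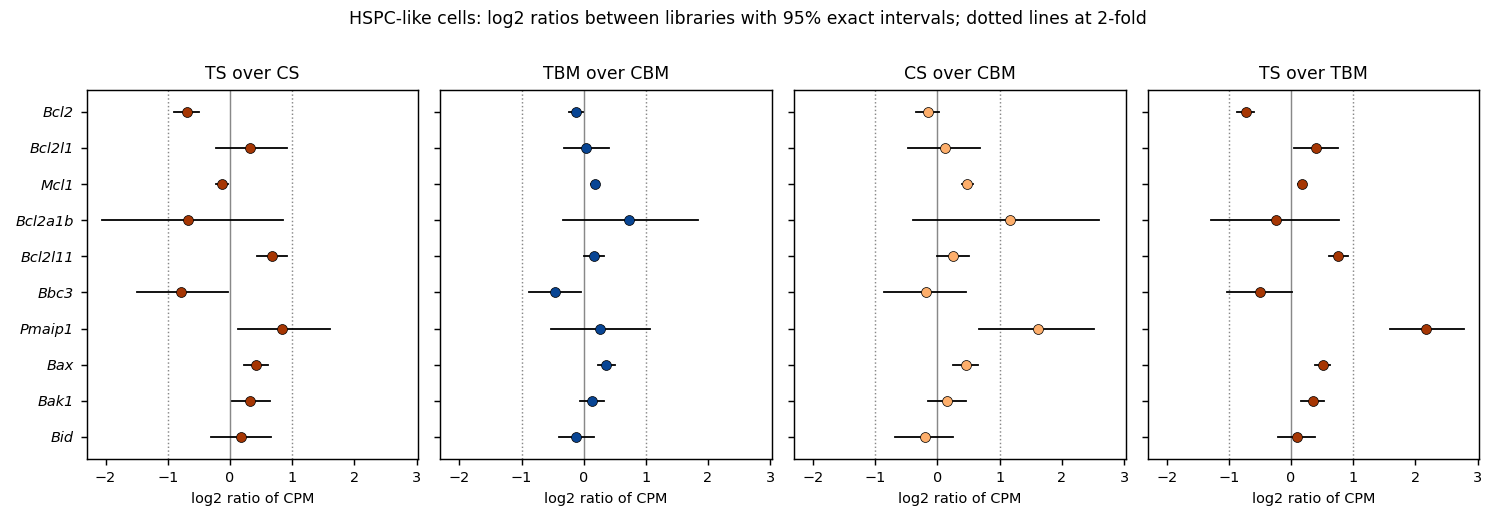
Log2 ratio of each of the 10 genes in HSPC-like cells for the 4 comparisons between libraries, with exact 95% counting intervals. Pmaip1 lies furthest right, at 2.17 in TS over TBM, and Bcl2 furthest left in that comparison, at -0.73.

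Other genes of the pathway, on lists chosen by function, were counted the same way. The share of all genes past 2-fold in these cells was 5.64% in TS over CS, 4.60% in TBM over CBM, 5.08% in CS over CBM and 5.69% in TS over TBM. Of 12 other BCL-2 family genes, 7 or 8 had enough UMIs in HSPC-like cells, and 0 were past 2-fold in any of the 4 comparisons. Of 16 genes of the apoptosome, caspases and their inhibitors, all 16 were measured and 0 were past 2-fold, with medians between -0.02 and 0.15. Of 12 genes of p53 and its targets, a list that bears on Bbc3, Pmaip1 and Bax as known p53 targets, 1 was past 2-fold in TS over CS, Perp at 1.02 (-0.33 to 2.73), and 2 in TBM over CBM, Perp at 2.14 and Phlda3 at -1.97. Of 12 genes that signal to the family, 11 were measured in TS over CS and 0 were past 2-fold. In TBM over CBM 1 of 12 was higher, the kinase gene Pim2 (1.16). In CS over CBM 1 of 12 was higher, Socs2 (1.15), and 1 lower, Trib3 (-1.94). In TS over TBM 2 of 12 were lower, Pim2 (-1.09) and Trib3 (-1.20). Of the dissociation and immediate-early list 8 of 14 were higher in CS than CBM, with Hspa1a at 4.06, Atf3 at 2.91, Hspa1b at 2.36 and Jun at 2.09. In TS over CS 2 of this list were lower, Fosb at -1.81 and Atf3 at -2.51, and in TBM over CBM 0 of 13 were past 2-fold. In TS over TBM 4 of 14 were higher, Jun, Egr1, Btg2 and Hspa1a, with a median of 0.55 over the list.

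GMP-like cells make neutrophils and monocytes and were 254, 910, 77 and 408 in CBM, TBM, CS and TS. Pmaip1, whose product NOXA mainly neutralizes MCL-1 and A1, was highest in TS. The 5 markers of the class summed in the reverse order, to 26047 in CBM and 23334 in TBM, and to 21966 in CS and 17837 in TS, and their part was not tested. Pmaip1 was at 1.30 in CBM and 3.22 in TBM, and at 6.35 in CS and 15.7 (13.7 to 17.9) in TS. The intervals of the 4 libraries did not overlap except between TBM and CS. On the log2 scale TS exceeded CS by 1.30 (0.64 to 2.04), TBM exceeded CBM by 1.31 (0.27 to 2.56), and TS exceeded TBM by 2.28 (1.94 to 2.64). Free RNA of Pmaip1 was above the GMP-like level in CBM, TBM and CS, at 5.59, 6.61 and 15.8, and below it in TS, at 4.71. With 10% of UMIs taken out as free RNA, TS exceeded CS by 1.68 and TBM by 2.57. Within cluster 4, led by Elane, Pmaip1 was 2.26 in TBM and 9.76 in TS, and within cluster 9, led by Cd14, it was 5.24 in TBM and 17.3 in TS. In single clusters the log2 ratio of TS over CS ran from 0.65, under 2-fold, to 1.36. That of TBM over CBM ran from 0.87 to 0.94, under 2-fold. Pmaip1 and Bcl2a1b were the 2 of 10 genes past 2-fold in TS over CS, against 8.42% of genes, Bcl2a1b being lower in TS from 23 and 18 UMIs. Pmaip1 was the 1 of 10 in TBM over CBM, against 6.19%, and in TS over TBM, against 5.09%. In CS over CBM 3 of 9 were higher, Pmaip1, Bcl2a1b and Bcl2l11, against 4.07%, and Bcl2a1b in CS, at 5.71, was under its free RNA level. Bcl2l11 was also under it in CBM, at 9.42 against 12.5, and was at 25.4 against 20.3 in CS. The dissociation and immediate-early genes were also higher in CS than CBM in these cells, 13 of 14 past 2-fold with sums of 984 in CBM and 3274 in CS. In TS over TBM 6 of the 14 were higher and in TS over CS 6 were lower, with sums of 988 in TBM and 2117 in TS, and their part was not tested.

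The effector genes of GMP-like cells were higher in the tumor libraries of both tissues. Bak1 was at 52.0 in CBM and 69.4 in TBM, and at 44.4 in CS and 87.9 in TS, and neither control interval reached a tumor interval. TS exceeded CS by 0.98 (0.73 to 1.25) on the log2 scale, and TBM exceeded CBM by 0.42 (0.25 to 0.59). Bax was at 98.1 in CBM and 134 in TBM, and at 112 in CS and 178 in TS. Free RNA of Bax, at 88.5, 110, 113 and 136 in CBM, TBM, CS and TS, was also higher with the tumor in both tissues and was above the class level in CS, and its part was not tested. Bcl2 over the whole class was at 38.5, 35.3, 46.0 and 33.5 in CBM, TBM, CS and TS, with TS over CS at -0.46 (-0.73 to -0.18), and the CBM and TBM levels were under free RNA. Within clusters it was also lower in TS than CS: in cluster 9 it was 103 in CS and 38.8 in TS, and in cluster 4 it was 28.6 in CS and 14.6 in TS, the latter under free RNA. Cluster 9, which held more Bcl2, made up 308 of the 408 GMP-like barcodes of TS and 22 of the 77 of CS.

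Monocyte-like cells could be compared in CBM, TBM and CS, with 748, 709 and 86 barcodes. Bcl2 was at 85.1 (81.1 to 89.3) in CBM, 40.7 (37.8 to 43.8) in TBM and 84.7 in CS. TBM lay below the other 2, with a log2 ratio of TBM over CBM of -1.06 (-1.19 to -0.94). The TBM level was under that of free RNA, 50.9, and with 10% of UMIs taken out as free RNA the ratio was -1.15. Over all planned settings the ratio ran from -1.15 to -0.56, so it was not past 2-fold in each of them. The clusters of this class went the same way with smaller sizes: Bcl2 was 110 in CBM and 56.0 in TBM in cluster 6, with log2 ratios of -0.98 in cluster 6, -0.77 in cluster 11 and -0.37 in cluster 21. Cluster 21, of low depth, held 45 of the CBM and 245 of the TBM barcodes. Pmaip1 was at 3.49 in CBM, 7.23 in TBM and 12.6 in CS, of which the CBM and CS levels were under those of free RNA, 5.59 and 15.8. The dissociation and immediate-early list summed to 1550 in CBM, 1640 in TBM and 3421 in CS, and its part was not tested. In cluster 6 Pmaip1 was 2.03 in CBM and 6.16 in TBM, and 12.4 in CS and 32.3 in TS, where the cluster had 34 barcodes. Its log2 ratio of TBM over CBM, 1.05 in the class, ran from 0.37 to 1.60 in single clusters. Planned settings gave 0.55 to 1.16, so it was not past 2-fold in each of them. Bcl2 and Pmaip1 were the 2 of 10 genes past 2-fold in TBM over CBM, against 6.13% of genes, and Pmaip1 and the sparse Bcl2a1b the 2 of 10 in CS over CBM, against 5.94%. Bax was higher in TBM than CBM by a log2 ratio of 0.51 and Bak1 by 0.47, while Bid differed by -0.05 (-0.18 to 0.08).

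**Figure D4:**
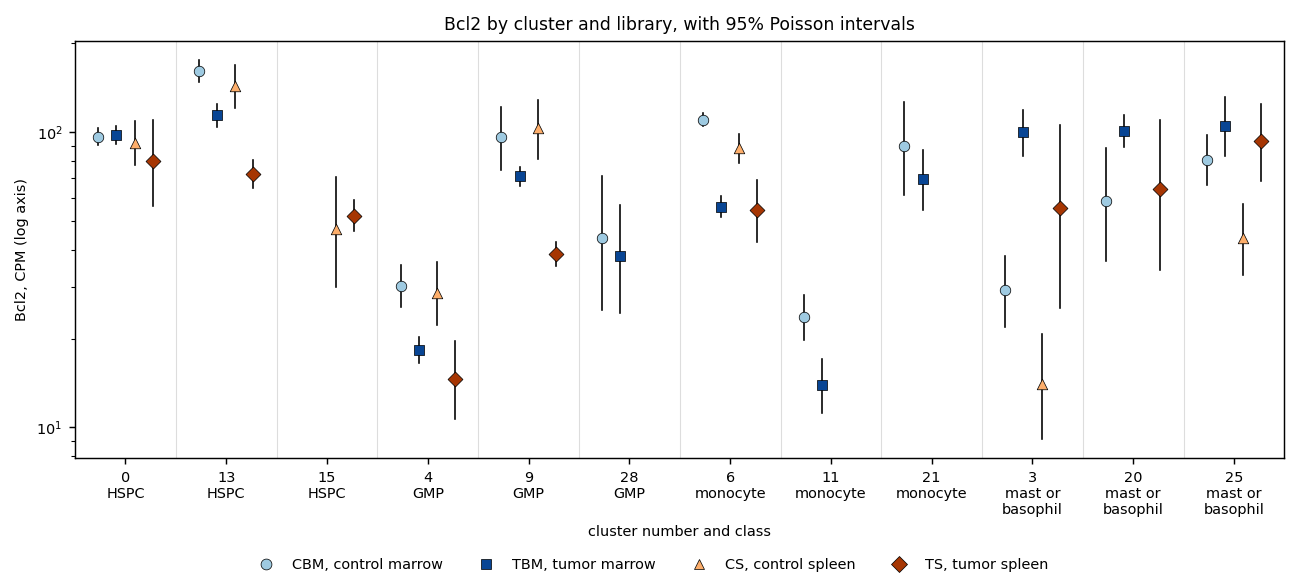
Bcl2 in CPM (log axis) by cluster and library, with exact 95% Poisson intervals, for clusters of 4 classes and libraries with at least 20 barcodes. Bcl2 is lower in TS than CS in cluster 13 (72.1 and 143) and cluster 9 (38.8 and 103), and higher in TS than CS in cluster 3 (55.5 and 14.1).

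Mast or basophil-like cells, which carry granules of histamine and proteases, had more Bcl2 and Pmaip1 in the tumor library of both tissues. They numbered 542, 511, 378 and 100 in CBM, TBM, CS and TS. Bcl2 was at 51.6 in CBM and 101 in TBM, and at 31.3 in CS and 79.3 in TS, higher with the tumor in both tissues with no overlap of the intervals. The CBM level was under that of free RNA, 62.3. The 13 markers of the class stood in the same order as Bcl2, summing to 12400.5 in CBM and 27614 in TBM, and to 6906 in CS and 15562 in TS, and their part was not tested. TBM exceeded CBM by 0.97 (0.72 to 1.23) on the log2 scale, and TS exceeded CS by 1.34 (0.87 to 1.80). The make-up of the class differed: cluster 20, led by the basophil genes Prss34 and Mcpt8, held 45 barcodes in CBM and 230 in TBM, and 5 in CS and 21 in TS. Cluster 3 was of low depth and held 45 barcodes in TS. Within cluster 3, led by Ccl6, Ccl3 and Ccl4, Bcl2 was 29.1 in CBM and 99.8 in TBM, and 14.1 in CS and 55.5 in TS, both control levels being under free RNA, and within cluster 25, led by Gzmb and Cma1, TBM exceeded CBM by 0.38 and TS exceeded CS by 1.09 on the log2 scale.

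Pmaip1 stood in a like order between control and tumor. It was at 13.6 in CBM and 42.3 in TBM, and at 20.8 in CS and 66.5 in TS. TBM exceeded CBM by 1.64 (1.17 to 2.12) on the log2 scale, and TS exceeded CS by 1.68 (1.14 to 2.22). Planned settings gave 1.01 to 2.15 for the former and 0.70, under 2-fold, to 2.36 for the latter. Pmaip1 was highest in cluster 3, at 21.4 in CBM and 118 in TBM, and at 32.1 in CS and 253 in TS, the highest level of the gene in a named cluster with at least 20 barcodes. Cluster 3 was shallow, with a median depth of 0.252 of the library median, and had 45 barcodes in TS. There the log2 ratios were 2.46 (1.94 to 3.01) and 2.98 (2.36 to 3.58). Cluster 25 differed: Pmaip1 had a log2 ratio of -0.97 for TBM over CBM, from levels under free RNA, and 2.10 for TS over CS. Bcl2, Pmaip1 and Bak1 were the 3 of 9 genes past 2-fold in TS over CS, against 12.7% of genes, Bak1 from a CS level of 23.3 under its free RNA level of 41.9, and Pmaip1 and Bcl2l1 were the 2 of 9 in TBM over CBM, against 7.94%. In CS over CBM 0 of 9 were past 2-fold, against 4.69%, and in TS over TBM 1 of 9, Bcl2l1, against 10.2%. The TS level of Bcl2l1 rests on 5 UMIs. In single clusters its log2 ratio ran from 0.06 to 2.58 for TBM over CBM and from -2.22 to -0.07 for TS over TBM.

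**Figure D5:**
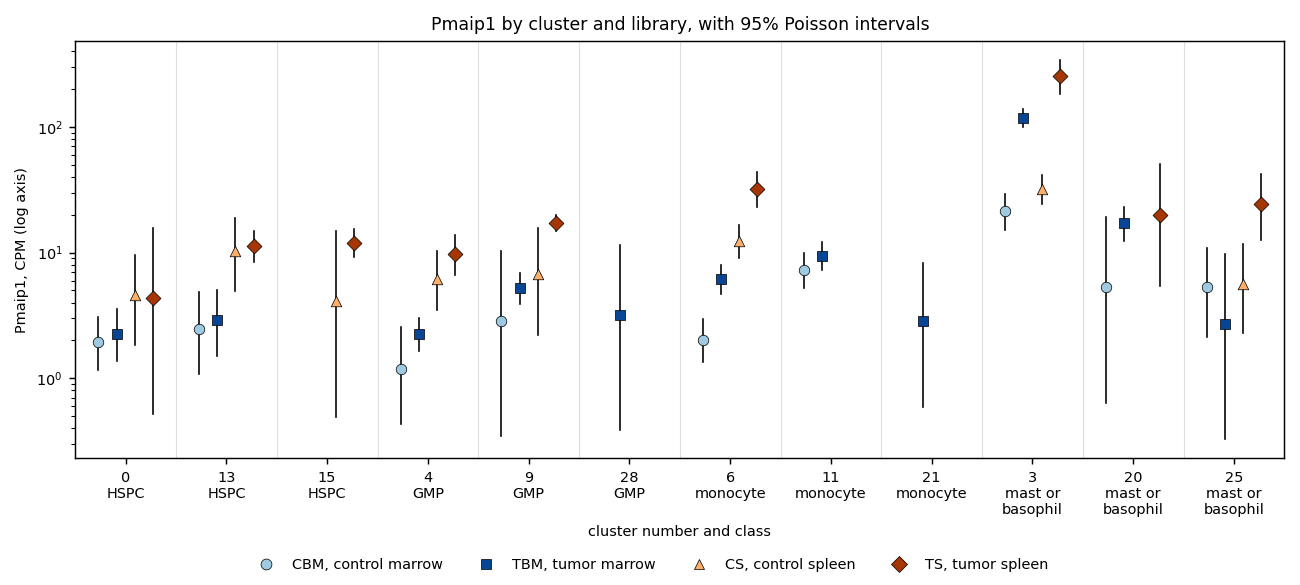
Pmaip1 in CPM (log axis) by cluster and library, with exact 95% Poisson intervals, for clusters of 4 classes and libraries with at least 20 barcodes and at least 1 UMI. TS is highest in cluster 3 (shallow, 45 TS barcodes) at 253, against 32.1 in CS, and in cluster 6 at 32.3, against 12.4 in CS.

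Other survival genes of mast or basophil-like cells did not follow Bcl2. Bcl2l1 was at 6.24 in CBM and 16.6 in TBM, and at 6.07 in CS and 5.83 in TS. Free RNA of Bcl2l1 was also highest in TBM, at 9.46 in CBM and 18.8 in TBM, both above the class level, and at 4.34 in CS and 4.44 in TS, and its part was not tested. Mcl1 was at 390 in CBM and 500 in TBM, and at 610 in CS and 376 in TS. TBM exceeded CBM by 0.36 (0.26 to 0.46) on the log2 scale, whereas TS over CS gave -0.70 (-0.87 to -0.53), but within cluster 3 the latter was 0.02, from levels of 877 and 889. The dissociation and immediate-early list summed to 10576 in CBM and 15318 in TBM, and to 18148 in CS and 12162 in TS, the order of Mcl1 but for CBM and TS, and its part was not tested.

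T, NK or innate lymphoid-like cells were compared in spleen alone, with 122 barcodes in CS and 129 in TS. Their own 15 markers summed to 3738 in CS and 2299 in TS, and cluster 32 held 43 of the CS and 22 of the TS barcodes. The part of either in the differences was not tested. Past 2-fold were 4 of 10, Bcl2a1b, Bbc3 and Pmaip1 lower and Bcl2l1 higher in TS, against 14.2% of genes. Bcl2a1b was at 99.4 (86.0 to 114) in CS and 4.10 (1.96 to 7.53) in TS, a log2 ratio of -4.60 (-5.68 to -3.69). In cluster 26, led by Trbc1 and Trbc2, it was 103 in CS and 2.17 in TS, and in cluster 32, led by Ms4a4b and Ccl5, 84.3 and 37.9. Free RNA of Bcl2a1b was 24.7 in CS and 1.11 in TS. Over planned settings the log2 ratio of Bcl2a1b ran from -4.73 to -2.59, and that of Bbc3 from -4.90 to -1.81. Bbc3 gave 24 UMIs in CS and 1 in TS, a log2 ratio of -4.89 (-10.2 to -2.27), at levels of 12.1 and 0.41 against free RNA at 9.08 and 6.38, and Pmaip1 was at 43.9 in CS and 15.2 in TS, a difference that differed by cluster, at -1.85 in cluster 26 and 2.61 in cluster 32, and that was 2.53 with finer clusters. Bcl2l1 was higher in TS, at 21.3 against 8.08. Bcl2, the main survival gene of resting lymphocytes, was at 221 (200 to 242) in CS and 335 (312 to 358) in TS, and Mcl1 at 335 in CS and 195 in TS. Within clusters TS over CS gave -0.89 for Mcl1 in cluster 26 and 0.36 (-0.11 to 0.82) in cluster 32. The dissociation and immediate-early list summed to 5499 in CS and 2877 in TS, and its part was not tested.

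The counts in the remaining classes moved with the settings, except for TBM over CBM in megakaryocyte-like cells. In early erythroid-like cells, held by cluster 10 in CS and by cluster 1 in TS, 0 of 9 genes were past 2-fold in TS over CS, against 5.49% of genes, but 2 were at either of 2 other cluster resolutions, and Bax was 163 and 180. In megakaryocyte-like cells 0 of 8 were past 2-fold in TS over CS, against 5.51%, in TBM over CBM, against 5.05%, in CS over CBM, against 3.41%, and in TS over TBM, against 8.56%, where the count was 3 with the mean over cells. In B lineage-like cells 0 of 7 were past 2-fold in TBM over CBM, against 11.0%, with Bcl2 at 18.3 and 14.1 in CBM and TBM. In hemoglobin-rich erythroid-like cells 1 of 8 was past 2-fold in TBM over CBM, Bak1 at 1.13, from levels of 11.7 and 25.6 under free RNA at 39.1 and 53.9, against 6.05%, a count that was 0 at other cluster resolutions, and 0 of 6 in CS over CBM, against 8.37%.

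Over the 30 pairs of class and library with at least 50 barcodes, the genes whose log2 levels ran most like those of the family were named by their Pearson r, as a description: the pairs share libraries, depth and clusters. Bcl2 ran with Klk8 (0.89), Tmem176b (0.88) and Tmem176a (0.88). Mcl1 ran with Arhgap25 (0.91), Zfp36 (0.91) and Parp4 (0.91), and Bcl2l1 with Ccnd3 (0.79), Cdc25b (0.78) and Cdkn2d (0.78). Bcl2a1b ran with Ciita (0.87), Apol7c (0.85) and H2-Eb1 (0.81), genes high in dendritic-like cells. Pmaip1 ran with Otulinl (0.80) and Ppp1r11 (0.80), and Bcl2l11 with Parp9 (0.73), Apobec3 (0.70) and Ikzf1 (0.64). The closest gene to Bax was Brms1 (0.91), to Bak1 Nedd8 (0.92), to Bid Cops9 (0.88) and to Bbc3 St3gal1 (0.77).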

How the data were processed

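The data were raw UMI counts per gene and barcode, deposited by the authors as 1 unfiltered matrix per library. Per the submitters' processing notes and the study's methods the reads were aligned and counted with Cell Ranger 4.0 on mm10. All barcodes with at least 1000 genes and at most 10% mitochondrial UMIs were kept (total depth 101811035 to 176094297 UMIs per library), without removing doublets or free RNA.

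Barcodes of the 4 libraries were clustered together (Leiden, leidenalg 0.10.2, on nearest neighbors found with scikit-learn 1.9.0) without the genes reported or listed here. A cluster was named from markers where at least 3 of a class's markers were among its top 50 genes and at least 1 among its top 10, a condition added after the clusters were seen. A cluster stayed unnamed where another class had as many markers in its top 50 or its top 10. Summed counts per class and library were scaled to 1000000. Intervals were computed in scipy 1.17.1. Ratios were counted only for genes with at least 20 UMIs in both libraries together. The ratio script was tested on simulated data.

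Named genes were the 10 members, at most 4 per list and comparison past 2-fold in HSPC-like cells, the 3 genes most like each member and class markers, of which 1 gene is not reported here. Values of cluster 31 and of the copies of Bcl2a1b were chosen after they were seen. Members and lists were chosen with earlier results of these data known. Alternatives were a fold of 1.5, other filters, scalings, cluster resolutions and class rules, removal of free RNA, and single clusters, the last added after seeing the data.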

Additional observations from a re-analysis of the deposited data

Results flagged for a closer look

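Mcl1 was singled out because its level differed in opposite directions between the tissues. In HSPC-like cells TS over CS gave a log2 ratio of -0.133 (-0.225 to -0.04), and TBM over CBM gave 0.182 (0.119 to 0.245). The former was 0.184 with classes by marker z score, and -0.045 in cluster 13 alone. In mast or basophil-like cells these were -0.699 and 0.357, but TS over CS was 0.019 in cluster 3 alone. With 1 library per group the difference between the tissues was not tested. The dissociation and immediate-early list was lower in TS than CS and higher in TBM than CBM in both classes, and its part was not tested.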

How the results depend on the processing

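No paired analysis was possible because each group has 1 library, and for the same reason no replicate could be left out. The count of the 10 genes past 2-fold in HSPC-like cells was sensitive to the settings. For TS over CS (0) it was 5 with a fold of 1.5, 1 with the mean over cells, 1 with 10% free RNA removed, and 1, 2 and 2 in clusters 0, 13 and 15 alone. For TBM over CBM (0) it was 1 with a fold of 1.5. For CS over CBM (2) it was 1 with free RNA removed, without the 5% deepest barcodes, at resolution 0.6 and with classes by marker z score, and 4 in cluster 13 alone. For TS over TBM (1) it was 3 with a fold of 1.5, 0 in cluster 0 alone and 3 in cluster 13 alone. The share of all genes past the cut is given here for the main settings alone. Counts at other settings therefore have no share to be read against. Over all classes 50 planned values of such counts were more than 1.5 times away and 226 were not, with ranges of 0 to 2 for TS over CS in early erythroid-like cells, 0 to 4 for TS over TBM in megakaryocyte-like cells and 0 to 3 for TBM over CBM in hemoglobin-rich erythroid-like cells. Of the member log2 ratios of 2-fold or more, 5 alternative values had the opposite sign, and of those under 2-fold 142 of 2001 planned and 82 of 320 single-cluster values did. Pmaip1 in TBM over CBM of mast or basophil-like cells was -0.968 in cluster 25 alone, and Pmaip1 in TS over CS of T, NK or innate lymphoid-like cells (-1.54) was 2.53 at resolution 2.0, 0.372 with marker z scores and 2.61 in cluster 32 alone. The sparse Bcl2a1b in CS over CBM of monocyte-like cells (-1.09) was 0.490 at resolution 0.6. The causes were not tested. Median-of-ratios scaling moved every gene by -0.103 in GMP-like cells and by -0.187 in hemoglobin-rich erythroid-like cells for CS over CBM. Depth limits Bcl2a1b, Pmaip1 and Bbc3 in HSPC-like cells, where some values rest on fewer than 30 UMIs, and every CS value there rests on 138 barcodes.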

Other observations

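Cells outside the comparisons, chosen after their values were seen, held high levels of several of these genes. An unnamed cluster of 22 CS barcodes, cluster 34, led by Ccl5, Fscn1, Ccr7 and Ccl22, had Bcl2a1b at 906 CPM, Mcl1 at 795, Pmaip1 at 242 and Bcl2l1 at 68.5. Bcl2a1b was also among the leading genes of that cluster, although it was left out of the clustering. Another unnamed cluster, cluster 35, with 28 CBM barcodes, had Bcl2a1b at 97.0.

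The conventional dendritic-like cells of TS numbered 30, too few for the class comparisons. Bcl2l11 was at 23.0 in CS and 92.5 in TS in these cells, a log2 ratio of 2.01 (1.49 to 2.49), while Bcl2a1b was at 232 in CS and 215 in TS. Bmf, a BH3-only gene, was at 31.6 in CBM and 93.8 in TBM in B lineage-like cells, in which Mcl1 was 406 and 429. Of 6 other BCL-2 family genes measured there it was the 1 past 2-fold higher, and 1 was lower, Bok at -2.50 from 2 and 23 UMIs, against 11.0% of all genes.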
